A study of Mus musculus with 79 samples.

Results

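The report follows 41 genes of the unfolded protein response and the integrated stress response, taken as a list of gene names grouped by known role. All 41 were found by name among the 38879 genes of the deposited table. By role they comprised 14 chaperones and folding enzymes of the endoplasmic reticulum (ER), 5 genes of ER-associated degradation, 6 sensors and transcription factors, 10 eIF2 kinases and eIF2 factors, and 6 targets and feedback genes of ATF4.

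The study sequenced RNA of neurons from medial prefrontal cortex in male mice of the strain C57Bl/6J. Mice of the UCMS arm (unpredictable chronic mild stress) met a changing series of mild stressors for 5 weeks and lived alone, while control mice lived in groups with littermates, so stress and housing cannot be told apart. Each library held 130 cells of 1 type, found with RNA probes for that type in frozen sections and cut out by laser: pyramidal neurons (PYR), the excitatory cells, or 1 of 3 interneuron types named for their products, parvalbumin (PV), somatostatin (SST) and vasoactive intestinal peptide (VIP). The UCMS groups had 10 mice for PYR, SST and VIP and 9 for PV, since no PV library of mouse U609 was among the samples, and each of the 4 control groups had 10 mice. All mice also went through behavioural tests late in the 5 weeks, and their ages are not given in the labels.

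Secreted and membrane proteins fold in the ER with the help of chaperones, and proteins that fail are handed to the degradation machinery. When unfolded proteins build up, the sensor IRE1 (gene Ern1) splices the mRNA of the transcription factor XBP1, ATF6 is cut to free its own transcription factor part, and both factors raise chaperone and degradation genes, while the sensor kinase PERK (Eif2ak3) phosphorylates the translation factor eIF2. The other eIF2 kinases answer to amino acid shortage (GCN2, gene Eif2ak4), double-stranded RNA (PKR, gene Eif2ak2) and lack of haem or other stresses (HRI, gene Eif2ak1), and all of them lower protein synthesis while letting ATF4 be made, which then drives its target genes. Splicing, cleavage, phosphorylation and translation are steps that a count of reads per gene does not measure.

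ATF6 and XBP1 act through the ER stress element ERSE, which reads CCAAT, 9 free bases and CCACG, and through the related ERSE-II, which reads ATTGG, 1 free base and CCACG. Both were searched for on both strands as exact letters in windows from 250 bases before to 50 bases after the annotated start, in RefSeq sequences of build GRCm38.p6. Windows were at hand for 35 of the 41 members. ERSE was found in 8 of the 35, against 39 of all 32851 windows (0.119%), and ERSE-II in 2 of the 35, against 12 of all windows (0.0365%). The 10 genes were 8 of the 12 chaperones and 2 of the 4 degradation genes that had a window. A match is a description of the sequence, and a window without one says only that these letters are not in it. The matches are printed 5′ to 3′ in the direction of the motif, with its fixed letters in capitals, so that the free spacer of ERSE can be compared between genes.
Hspa5 ERSE: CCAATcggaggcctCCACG
Hsp90b1 ERSE, distal: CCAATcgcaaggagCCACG
Hsp90b1 ERSE, proximal: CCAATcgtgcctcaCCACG
Calr ERSE: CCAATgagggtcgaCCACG
Canx ERSE: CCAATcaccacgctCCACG
Pdia6 ERSE: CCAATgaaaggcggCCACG
Dnajc3 ERSE: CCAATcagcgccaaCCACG
Creld2 ERSE: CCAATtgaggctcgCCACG
Syvn1 ERSE: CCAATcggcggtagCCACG
Dnajb11 ERSE-II: ATTGGcCCACG
Herpud1 ERSE-II: ATTGGgCCACG

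The ATF4 composite element CARE, searched as TGATGNAA on both strands, was found in 5 of the 35 members (Asns, Atf3, Chac1, Herpud1 and Trib3), against 1304 of all windows (3.97%), and 3 of the 5 ATF4 target and feedback genes with a window held it. The UPR element searched as TGACGTGG was in none of the 35 members and in 222 of all windows (0.676%). No match of a member overlapped a match of another motif. Herpud1 was the 1 member with matches to both ERSE-II and CARE. The 250 bases before the start are shown for 3 genes with different layouts, in lower case with the matches in capitals: Hspa5 (chr2:34771840-34772089, + strand), with ERSE close to the start; Herpud1 (chr8:94386179-94386428, + strand), with CARE on the opposite strand before ERSE-II; and Chac1 (chr2:119350992-119351241, + strand), with CARE on the opposite strand.
Hspa5: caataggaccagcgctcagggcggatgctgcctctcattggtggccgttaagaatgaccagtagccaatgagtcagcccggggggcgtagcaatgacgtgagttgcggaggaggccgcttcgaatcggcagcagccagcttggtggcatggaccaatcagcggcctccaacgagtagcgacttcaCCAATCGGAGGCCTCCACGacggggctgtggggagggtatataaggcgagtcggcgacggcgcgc
Herpud1: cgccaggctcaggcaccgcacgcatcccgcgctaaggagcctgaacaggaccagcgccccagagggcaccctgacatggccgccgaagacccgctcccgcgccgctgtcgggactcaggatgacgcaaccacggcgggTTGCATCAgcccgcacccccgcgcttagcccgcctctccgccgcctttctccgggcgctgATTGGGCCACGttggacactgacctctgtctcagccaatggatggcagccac
Chac1: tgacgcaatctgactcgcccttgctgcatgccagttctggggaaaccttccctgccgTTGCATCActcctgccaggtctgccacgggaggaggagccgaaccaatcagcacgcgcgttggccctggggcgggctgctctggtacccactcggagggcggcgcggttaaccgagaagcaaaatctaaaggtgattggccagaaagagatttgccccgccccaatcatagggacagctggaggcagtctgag

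**Figure D1:**
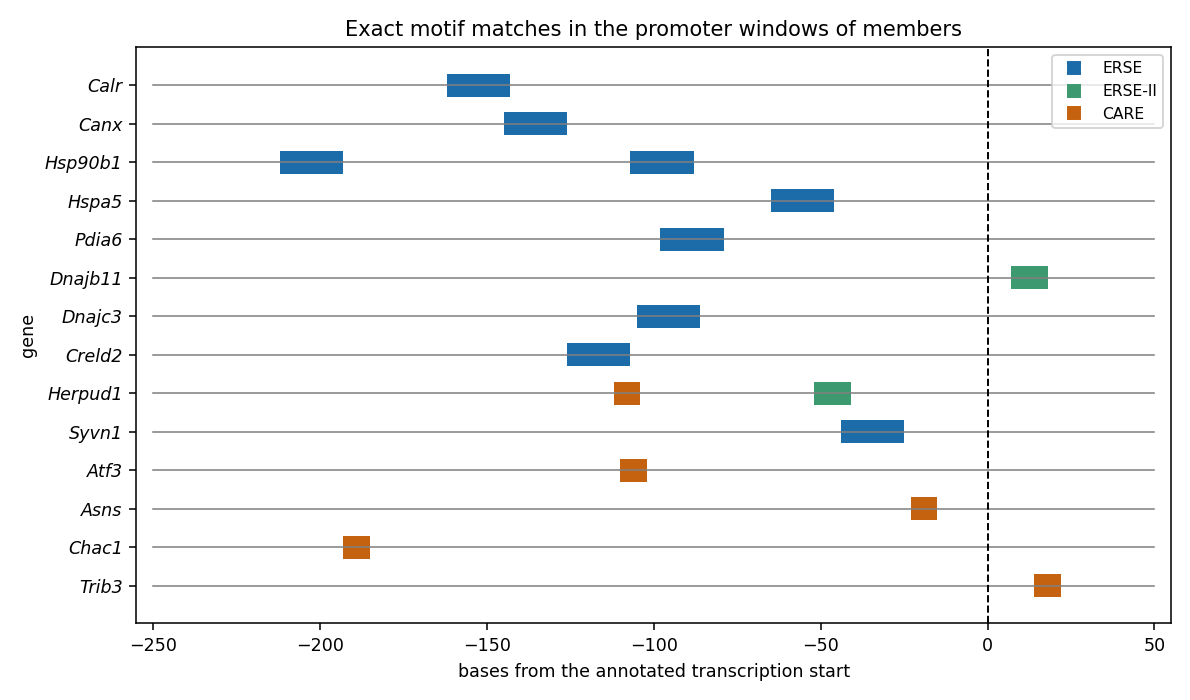
Positions of exact ERSE, ERSE-II and CARE matches in the windows of the 14 members that hold one, in bases from the annotated transcription start (dashed line at 0), with a bar for each match. The ERSE match of Hspa5 covers bases -65 to -47, Hsp90b1 has 2 ERSE matches, and the matches of Dnajb11 and Trib3 lie after the start.

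The captures carried the markers of their labelled types. Slc17a7, which loads glutamate into vesicles in excitatory cells, averaged 12973 normalized counts in UCMS PYR and 14218 in control PYR libraries, and 2603 to 4998 in the other 6 groups. Pvalb averaged 874 in UCMS PV and 816 in control PV, Sst 12124 in UCMS SST and 12981 in control SST, and Vip 4423 in UCMS VIP and 5104 in control VIP libraries. The summed level of 5 pyramidal markers in VIP captures was 17805 in UCMS and 17644 in control mice, against 25900 in UCMS PYR and 27145 in control PYR captures, and glial markers were read in every group, so the captures were enriched and not pure. Read totals ran from 3642579 to 13529571 per library and genes detected, with any read, from 9033 to 20307. The 4 libraries under 5087671.5 reads, which is 1 part in 2 of the median, were all VIP: UCMS mouse U602 and control mice U4, U6 and U10.

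Levels of the members spanned a wide range. On the scale of mean normalized counts per kilobase of exon over the 8 groups, the lectin chaperones Calr (507) and Canx (482) and the ER member of the HSP90 family, Hsp90b1 (432), ranked 1 to 3 of the 41. Of the exon bases of Hsp90b1, 15.7% overlap other genes on either strand, the largest such share of any member, so some of its reads may be theirs. Atf4, the central transcription factor of the integrated stress response, came next at 234, ahead of the disulfide isomerase Pdia3 at 192 and Hspa5, the ER chaperone BiP, at 181. Sel1l, the adaptor of the HRD1 degradation complex, stood at 178, far above its partner Syvn1, the ubiquitin ligase of that complex, at 49.9. At the low end were Ern1 at 18.2, Eif2b3 at 11.4, Eif2ak2 at 5.95, Atf3 at 2.54 and Trib3 at 1.31. Trib3, a pseudokinase, was listed at 0 in 73 of 79 libraries, Atf3 in 71, the chaperone partner Sdf2l1 in 45, Eif2ak2 in 38 and Chac1, which breaks down glutathione, in 31.

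The members that varied least between libraries were abundant ones, but not all abundant members varied little. Over all 79 libraries the coefficient of variation was 25.0% for Sel1l, 25.4% for Canx, 28.2% for Calr and 29.0% for Hsp90b1. Among other members high per kilobase it was 33.1% for Pdia3, 45.8% for Hspa5, 48.1% for Atf4 and 57.7% for Pdia4. For lower members it was 95.2% for Ddit3, 96.0% for Ern1 and 162% for Chac1. These are captures of bulk RNA, so fewer cells of a type and less RNA per cell cannot be told apart. Together the 41 genes made up 0.178% of the signal in UCMS PYR and 0.160% in control PYR libraries, and the share reached 0.197% in UCMS SST and 0.187% in control SST libraries. Chaperones alone summed to 8413 ± 865 normalized counts in UCMS PYR and 8356 ± 789 in control PYR libraries, and to 10348 ± 925 in UCMS SST and 9447 ± 876 in control SST libraries (SD, n = 10 each).

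**Figure D2:**
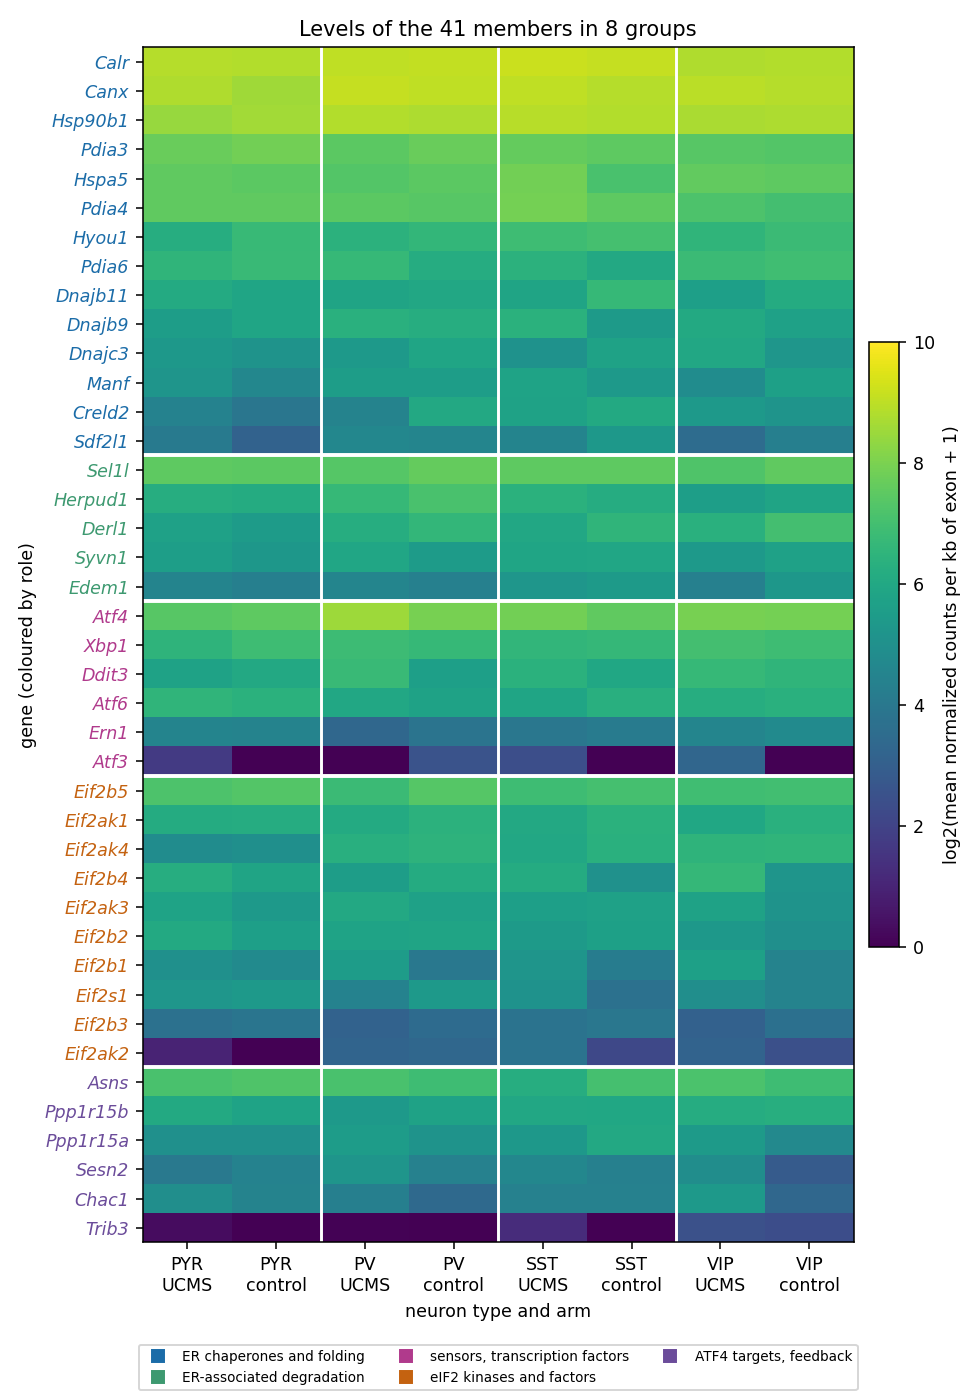
Mean level of each of the 41 members in the 8 groups, as log2(mean normalized counts per kilobase of exon + 1), with genes ordered by role and level and each type's UCMS column left of its control column. Calr, Canx and Hsp90b1 are the brightest rows in every group, and Eif2ak2, Atf3 and Trib3 the darkest.

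A member counted as detected when a library held at least 3 reads of it. In PYR neurons 36 to 39 members were detected in UCMS libraries (median 37), against 34 to 37 in control libraries (median 35). The median was 35 in UCMS and 36 in control PV libraries, 38 in UCMS and 35 in control SST libraries, and 37 in UCMS and 34 in control VIP libraries. Over all genes the median number detected was also higher in UCMS libraries of each type: 16186.5 in UCMS and 14011.5 in control PYR libraries, 13790 in UCMS and 13366.5 in control PV libraries, 14799.5 in UCMS and 13701 in control SST libraries, and 14942.5 in UCMS and 12919 in control VIP libraries. The part that detection plays in the differences of low genes between the arms was not tested beyond the fit with genes detected as a covariate.

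Neuron types were compared first, each against the mean of the other 3 within mice, separately in UCMS and in control mice, by limma on log2(normalized count + 4) with Benjamini-Hochberg adjustment over all genes and a call at adjusted p under 0.05. Of 312 member tests over these 8 contrasts, 7 passed, and they came from 4 genes: Eif2ak4, Eif2ak2, Atf4 and Ern1. For each gene the 4 contrasts of an arm depend on each other, since a low value in 1 type raises the differences of the others. In UCMS mice the members called were 2 of 39 for PYR (8.18% of all genes tested were called), 2 of 39 for PV (11% of all genes), 0 of 39 for SST (3.64%) and 1 of 39 for VIP (6.67%). In control mice they were 1 of 39 for PYR (6.26% of all genes), 1 of 39 for PV (7.35%), 0 of 39 for SST (2.49%) and 0 of 39 for VIP (4.23%). The members' shares, at most 5.13%, were below the share of all genes in every one of the 8 contrasts. For SST the members with an unadjusted p under 0.05 (limma) numbered 4 in UCMS mice (11.9% of all genes) and 1 in control mice (11.6%). There edgeR called 0 members in UCMS mice (3.14% of all genes) and 0 in control mice (1.86%). DESeq2 on recovered reads called 0 in control mice (9.93% of all genes) and 3 in UCMS mice (Eif2ak2, Hyou1 and Sdf2l1). The 3 are 7.69% of the members, against 8.07% of all genes. For VIP in control mice 2 members had an unadjusted p under 0.05 (limma, 15% of all genes). There edgeR called 0 members (3.19% of all genes) and DESeq2 called 0 (12.1% of all genes).

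Eif2ak4 encodes GCN2, the eIF2 kinase that senses uncharged tRNA. Its normalized counts (lowest, median and highest) were 64.4, 199 and 455 in UCMS PYR libraries, against 341, 463 and 1023 in UCMS PV, 227, 355 and 1137 in UCMS SST and 456, 680 and 1140 in UCMS VIP libraries. In control mice they were 17.1, 275 and 421 in PYR libraries, against 280.2, 616 and 1410 in PV, 167, 474 and 1588 in SST and 347, 586 and 1326 in VIP libraries. PYR libraries were low in both arms, and their highest values overlapped the lower libraries of the other types. Eif2ak4 was lower in PYR neurons by a log2 difference of -1.48 ± 0.27 (SE) in UCMS mice (limma, adjusted p = 9.7e-06, lower in 10 of 10 mice) and of -1.69 ± 0.34 in control mice (adjusted p = 9.38e-05, lower in 10 of 10 mice). Both calls held under each alternative tried and with each mouse left out, with an adjusted p of at most 0.00403. Against the mean of the other types, Eif2ak4 was higher in VIP neurons of UCMS mice, by 0.90 ± 0.27 (limma, adjusted p = 0.0243, higher in 10 of 10 mice), and by 0.75 ± 0.34 in control mice, where the adjusted p was 0.254. That mean holds the low PYR libraries, so the VIP difference is not separate from the PYR one. In control mice the VIP median (586) was below the PV median (616). The VIP call was lost when mouse U601, U602 or U610 was left out, with an adjusted p of up to 0.0761, and with no filter, without the 4 shallow libraries or with edgeR.

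Eif2ak2 encodes PKR, the eIF2 kinase that binds double-stranded RNA. It had 0 reads in 8 of 10 UCMS PYR libraries and in all 10 control PYR libraries, where 0 reads allow an expected count of up to 3 reads, or 1.94 to 4.29 normalized counts in UCMS PYR and 2.23 to 2.79 in control PYR libraries. Its median was 34.5 normalized counts in UCMS PV, 28.5 in UCMS SST and 23.7 in UCMS VIP libraries, against 19.5 in control PV libraries and 0 in control SST and control VIP libraries. Eif2ak2 was lower in PYR neurons of UCMS mice (log2 difference -2.10 ± 0.71, limma, adjusted p = 0.0463, lower in 9 of 10 mice), and the adjusted p in control mice was 0.127 (lower in 10 of 10 mice). In PV neurons of control mice it was higher (2.03 ± 0.66, limma, adjusted p = 0.0339, higher in 8 of 10 mice), and in UCMS mice the difference was 0.88 ± 0.75 (adjusted p = 0.537). Both calls rest on few reads. The PYR call was lost when any of the mice U601, U602, U603, U605, U607, U608, U609 or U610 was left out (adjusted p up to 0.145), and the PV call when U1, U2, U3, U4, U6 or U9 was left out (adjusted p up to 0.144). The summed level of 9 microglial markers averaged 440 in UCMS PYR, 496 in UCMS PV, 590.1 in UCMS SST and 619 in UCMS VIP libraries, and 504, 324, 457 and 706 in control libraries of the same types in that order, and their part in the Eif2ak2 differences was not tested.

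Atf4 and Ern1 were called in PV neurons of UCMS mice. Atf4 had 440, 928 and 1145 normalized counts (lowest, median and highest) in UCMS PV libraries, against 208, 398 and 583 in UCMS PYR, 295, 523 and 893 in UCMS SST and 223, 382 and 1091 in UCMS VIP libraries. Most PV libraries lay above most libraries of the other types, with overlap. The log2 difference was 0.81 ± 0.25 (limma, adjusted p = 0.0164, higher in 8 of 9 mice), and without mouse U603 the adjusted p was 0.0823. In PV neurons of control mice it was 0.39 ± 0.33 (adjusted p = 0.598, higher in 6 of 10 mice). Ern1, the gene of the sensor IRE1, had a median of 52.7 normalized counts in UCMS PV libraries, against 163 in UCMS PYR, 108 in UCMS SST and 134 in UCMS VIP libraries. Its log2 difference was -1.95 ± 0.63 in PV neurons of UCMS mice (limma, adjusted p = 0.0257, lower in 7 of 9 mice) and -0.86 ± 0.68 in those of control mice (adjusted p = 0.566, lower in 6 of 10 mice). The Ern1 call was lost without mouse U602, U605, U606 or U610, with no filter, and under edgeR and DESeq2 (adjusted p up to 0.472 over the alternatives). A call in 1 arm only does not show that the arms differ: the F test of whether stress effects differ between types gave adjusted p = 1.00 for Atf4 and for Ern1 (limma).

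**Figure D3:**
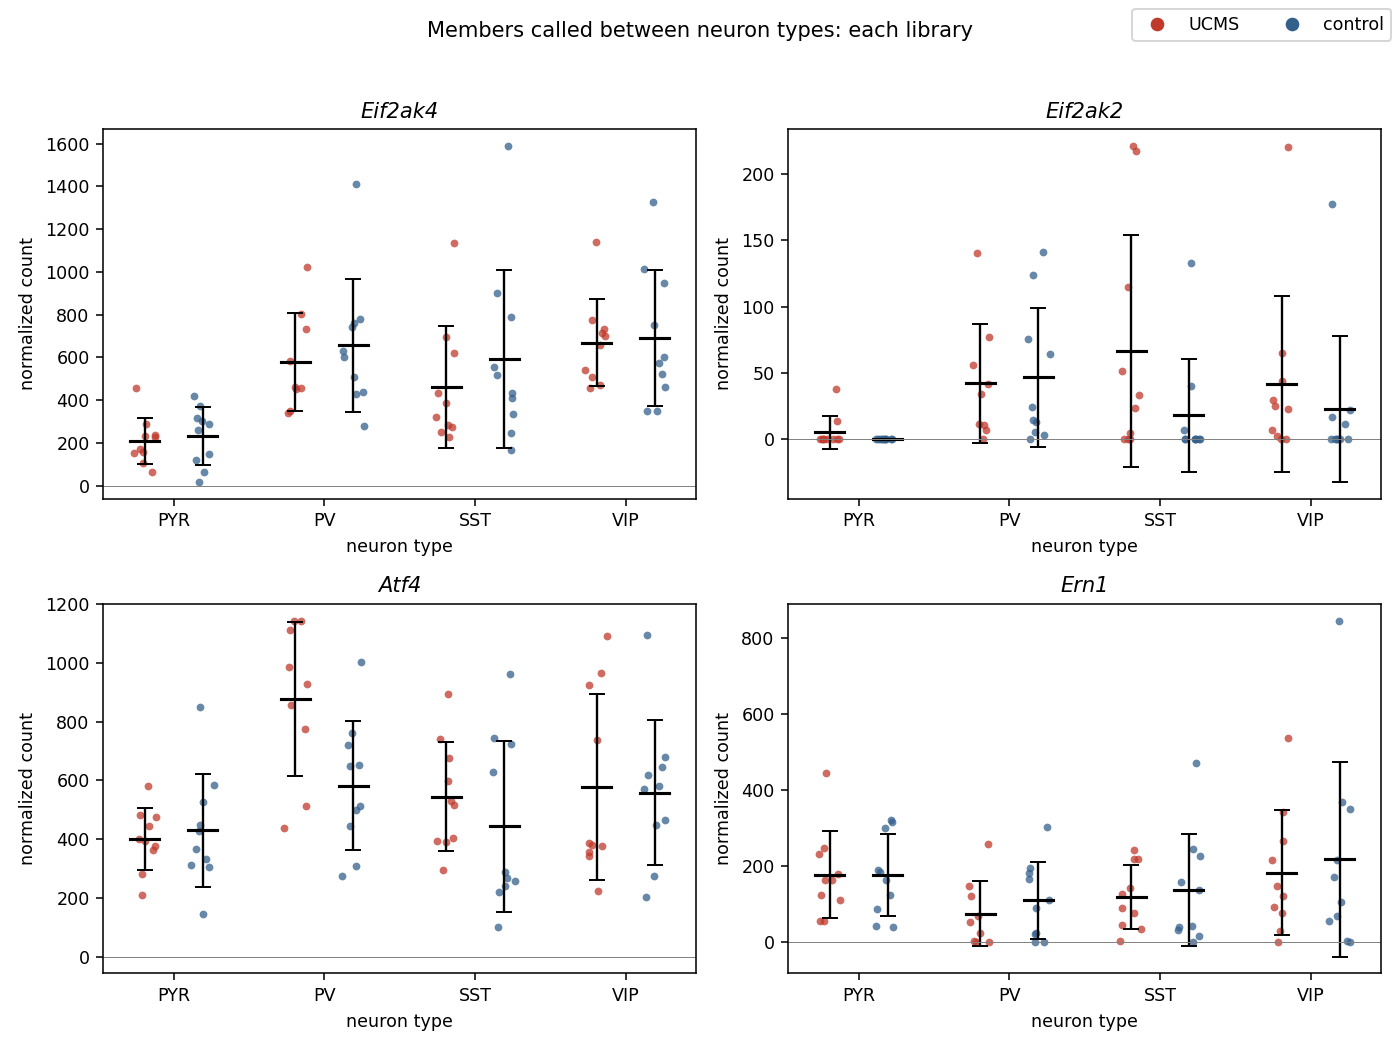
Normalized counts of Eif2ak4, Eif2ak2, Atf4 and Ern1 in each library (points), by neuron type, with UCMS left of control and the mean and SD of each group as bars (n = 10 libraries, 9 for UCMS PV; a bar may reach below 0 although counts cannot). Eif2ak4 is low in PYR neurons of both arms, with medians of 199 in UCMS and 275 in control mice.

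Of 43 other ER genes found in the table, 42 were tested in each type contrast, and of 30 other genes of the integrated stress response 29 were. Those named below are all that were called. In the same contrasts 8.18%, 11%, 3.64% and 6.67% of all genes were called for PYR, PV, SST and VIP in UCMS mice. In control mice the shares of all genes were 6.26%, 7.35%, 2.49% and 4.23%. The calls are listed as a description and not as an excess over all genes. The contrasts of a gene within an arm depend on each other, so its calls in several types are not separate findings. In UCMS mice Wfs1, an ER membrane protein, was higher in PYR (log2 difference 1.19) and VIP (1.54) and lower in PV (-1.49) and SST (-1.24). Creb3l2, an ER-bound transcription factor, was lower in PYR (-2.79) and higher in PV (1.88). Impact, an inhibitor of GCN2, was lower in PYR (-0.43), Os9, a lectin of ER-associated degradation, was lower in PV (-0.70), and Sec63, a partner of the ER protein channel, was lower in SST (-0.96). The adjusted p of these UCMS calls ran from 8.74e-05 to 0.0366 (limma). In control mice Map3k5, a kinase downstream of IRE1, was higher in PYR (1.37, adjusted p = 0.00803), Wfs1 lower in PV (-1.77, adjusted p = 0.00279) and Slc3a2, the heavy chain of amino acid transporters, lower in VIP (-1.65, adjusted p = 0.00349). Of these calls, that of Wfs1 in PV neurons was made in both arms. Leaving out 1 mouse ended the call of Impact (U603, U606, U607, U609 or U610), of Creb3l2 in PV (U601, U604, U606, U607, U608 or U610), of Sec63 (U602 or U606) and of Slc3a2 (U3).

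Stress was compared within each neuron type, UCMS against control mice. No member passed in any type: 0 of 38 tested in PYR, where 0.0808% of all genes were called, and 0 of 39 each in PV, SST and VIP, where 0% of all genes were called (limma, adjusted p under 0.05). Members with an unadjusted p under 0.05 numbered 2 in PYR (6.36% of all genes tested), 1 in PV (3.74%), 3 in SST (5.72%) and 2 in VIP (5.15%). edgeR and DESeq2 on recovered reads also called 0 members in each type. Of all genes, edgeR called 0 of 16092 in PYR, 0 of 16847 in PV, 0 of 17108 in SST and 896 of 19451 in VIP. DESeq2 called 32, 46, 30 and 83 of these genes in that order, so the tools differ over all genes, most in VIP. Trib3 and Atf3 fell under the filter of a mean of 10 normalized counts in every stress comparison, and Eif2ak2 did in PYR.

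Taken as a list, the members sat slightly above 0, as did all genes. The median log2 difference of UCMS minus control was 0.23 over the members and 0.10 over all genes tested in PYR, 0.11 and 0.05 in PV, 0.21 and 0.15 in SST, and 0.12 and 0.17 in VIP. Positive differences were found for 28 of 38 members in PYR (58.8% of all genes), 24 of 39 in PV (53.0%), 27 of 39 in SST (60.9%) and 25 of 39 in VIP (60.2%). The direction of these medians depends on the scale: with edgeR and DESeq2 the PV median was -0.04 and -0.06 with 19 of 39 members positive under each, and DESeq2 gave -0.01 in SST with 19 of 39 positive.

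**Figure D4:**
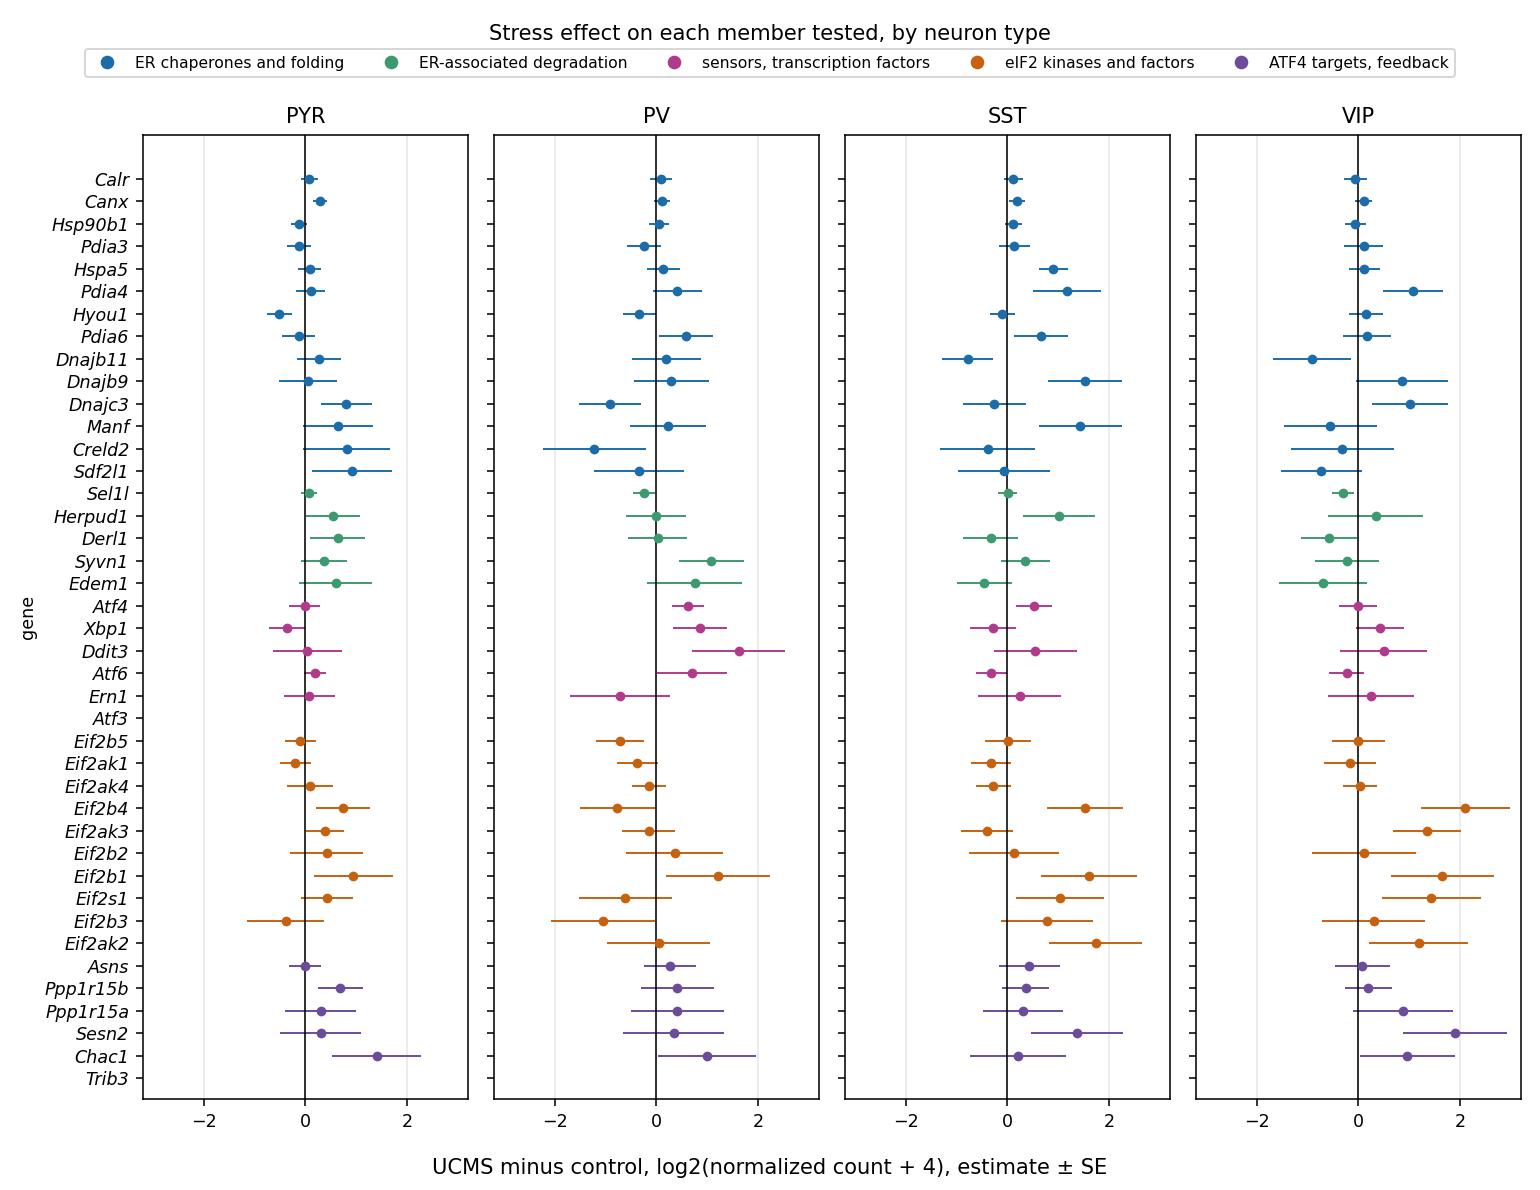
Difference of UCMS minus control on the log2(normalized count + 4) scale for each member tested, with its standard error, in the 4 neuron types (n = 10 UCMS and 10 control libraries, 9 UCMS for PV). Points of the low genes carry wide errors, and no member passes adjusted p under 0.05 in any panel.

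Among the chaperones, Hspa5 had the smallest unadjusted p of any member within a type. In SST neurons it had 386, 941 and 1622 normalized counts (lowest, median and highest) in UCMS libraries, against 106, 607.96 and 1052 in control libraries. The groups overlapped, and 8 of 10 UCMS mice lay above the control median. The log2 difference was 0.90 ± 0.28 (limma, p = 0.00145, adjusted p = 0.774), and it ran from 0.67 to 1.04 with each mouse left out. In the other types the means were close together: 803 ± 255 in UCMS and 745 ± 178 in control PYR libraries, 679 ± 237 in UCMS (n = 9) and 744 ± 617 in control PV libraries, and 822 ± 290.5 in UCMS and 763 ± 287 in control VIP libraries (SD, n = 10 unless given).

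Hyou1, an exchange factor that recharges BiP, had 235, 540.1 and 688 normalized counts in UCMS PYR libraries, against 575, 699 and 1076 in control PYR libraries. All 10 UCMS mice lay below the control median, and the highest UCMS libraries overlapped the lower control libraries. Its log2 difference was -0.51 ± 0.24 (limma, p = 0.0313, adjusted p = 0.764). Canx, the membrane-bound lectin chaperone, had 1493, 2202 and 2495 normalized counts in UCMS PYR libraries, against 1129, 1712 and 2600.5 in control PYR libraries. Canx exceeded the control median in 8 of 10 UCMS mice (0.28 ± 0.14, p = 0.0477, adjusted p = 0.781). Hsp90b1 had 1108, 1376 and 1897 normalized counts in UCMS and 1061, 1549 and 1961 in control PYR libraries, and 9 of 10 UCMS mice lay below the control median (log2 difference -0.13 ± 0.16, adjusted p = 0.936).

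The J-domain co-chaperones of BiP did not share a direction. Dnajb9 (ERdj4) had 38.3, 214 and 383 normalized counts in UCMS SST libraries, against 0, 72.8 and 287 in control SST libraries, and 9 of 10 UCMS mice lay above the control median (1.53 ± 0.73, limma, p = 0.0367, adjusted p = 0.853). Dnajb11 (ERdj3) had 121, 157 and 321 in UCMS SST libraries, against 80.8, 367 and 442 in control SST libraries. All 10 UCMS mice lay below the control median of Dnajb11, while 1 control library lay below every UCMS library (-0.78 ± 0.50, p = 0.116, adjusted p = 0.879). In VIP neurons Dnajb11 had 0, 104 and 609.9 in UCMS and 35.1, 187 and 506 in control libraries (-0.92 ± 0.77, adjusted p = 0.936). Dnajc3, a co-chaperone also known as an inhibitor of eIF2 kinases, had medians of 196 in PYR libraries of UCMS and 126 in those of control mice (0.81 ± 0.50, adjusted p = 0.833), and of 273 in UCMS and 289 in control PV libraries (-0.91 ± 0.61, adjusted p = 0.982). Creld2, an ER disulfide protein, had a median of 27.2 in UCMS and 94.9 in control PV libraries, with 9 of 9 UCMS mice below the control median and 4 UCMS and 3 control libraries at 0 (-1.22 ± 1.02, adjusted p = 0.982).

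Over the 14 chaperones, 10 had a positive difference in PYR (median log2 difference 0.09), 9 in PV (0.10), 9 in SST (0.13) and 8 in VIP (0.10), and 0 were called in any type. With edgeR the positive counts were 9, 7, 9 and 7 in the same order of types, and the PV median turned to -0.01. With genes detected as a covariate the counts were 7, 9, 10 and 7, and the medians 0.004, 0.10, 0.09 and 0.009. The 10 members with ERSE or ERSE-II, 8 of which are chaperones, had medians of 0.28 in PYR, 0.10 in PV, 0.15 in SST and 0.02 in VIP, with 8, 7, 7 and 5 of 10 positive, and 0 called.

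The genes of ER-associated degradation had different signs in different types. In PYR 5 of 5 had a positive difference (median 0.55; edgeR also 5 of 5, median 0.25), while in VIP 1 of 5 did (median -0.31) and 0 of 5 with edgeR. The count was 3 of 5 in PV (2 of 5 with edgeR) and 3 of 5 in SST (1 of 5 with DESeq2), and none were called. With genes detected as a covariate the counts were 4, 3, 2 and 0 of 5 in PYR, PV, SST and VIP. The summed level of the 5 genes was 2285 ± 343 in UCMS and 2139 ± 517 in control PYR libraries, and 1988 ± 459 in UCMS and 2687 ± 606.2 in control VIP libraries (SD, n = 10 each). Sel1l had 818, 1326 and 1699.7 normalized counts in UCMS VIP libraries, against 743, 1710 and 2064 in control VIP libraries. All 10 UCMS mice lay below the control median, yet the lowest library was a control (-0.31 ± 0.22, limma, p = 0.167, adjusted p = 0.934). Derl1, a channel component that moves proteins out of the ER, had medians of 250.02 in UCMS and 355 in control VIP libraries (-0.57 ± 0.55, adjusted p = 0.939), and the difference turned to 0.11 without the 4 shallow libraries.

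In PV neurons Syvn1, the HRD1 ubiquitin ligase, had 110.1, 294 and 469.6 normalized counts in UCMS libraries, against 0.79, 151 and 778 in control libraries. It exceeded the control median in 8 of 9 UCMS mice, and the control range enclosed the UCMS range (1.08 ± 0.63, limma, p = 0.0862, adjusted p = 0.982). Edem1, which sends misfolded glycoproteins to degradation, had medians of 217 in UCMS and 294 in control SST libraries (-0.46 ± 0.54, adjusted p = 0.918). Herpud1, printed above with both motif kinds, had 84.6, 174 and 417 in UCMS SST libraries and 0, 192 and 394 in control SST libraries.

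Of the 5 sensors and transcription factors tested, 4 had a positive difference in PV neurons, with a median log2 difference of 0.71 (edgeR 4 of 5, median 0.26). The count was 3 of 5 in PYR (median 0.04), SST (0.24) and VIP (0.24), but 2 of 5 with edgeR in PYR (median -0.08) and SST (-0.02), and none were called. Atf4 had 440, 928 and 1145 normalized counts in UCMS PV libraries, against 275, 581 and 1005 in control PV libraries. It exceeded the control median in 7 of 9 UCMS mice (0.62 ± 0.31, limma, p = 0.0459, adjusted p = 0.982). Ddit3, the transcription factor CHOP, had 0, 185 and 388 in UCMS PV libraries, against 0, 56.5 and 341 in control PV libraries, with 8 of 9 UCMS mice above the control median (1.62 ± 0.92, p = 0.0773, adjusted p = 0.982). Its exons overlap antisense genes and a second model of the same name over 10.9% of their bases. In PYR neurons Atf4 averaged 401 ± 106 in UCMS and 430.3 ± 193 in control libraries, and Ddit3 had medians of 89.8 in UCMS and 90.6 in control libraries.

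Xbp1, whose mRNA IRE1 splices, had 70.3, 262 and 594 normalized counts in UCMS PYR libraries, against 110, 345 and 671 in control PYR libraries, with 7 of 10 UCMS mice below the control median (-0.36 ± 0.35, limma, adjusted p = 0.922). Atf6 had 253, 536 and 759 in UCMS SST libraries, against 246, 650 and 1405 in control SST libraries (-0.32 ± 0.31, adjusted p = 0.913, 7 of 10 UCMS mice below the control median). The groups overlapped for both. Gene counts do not separate spliced from unspliced Xbp1.

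Among the eIF2 kinases and factors, the subunits of eIF2B, the exchange factor that phosphorylated eIF2 blocks, held the member with the smallest unadjusted p in VIP neurons, Eif2b4. Eif2b4 had 74.7, 155 and 367 normalized counts in UCMS SST libraries, against 4.93, 88.8 and 197 in control SST libraries. It exceeded the control median in 9 of 10 UCMS mice (1.52 ± 0.75, limma, p = 0.0430, adjusted p = 0.856). In VIP neurons Eif2b4 had 32.0, 192 and 980.5 in UCMS libraries, against 0, 88.7 and 272 in control libraries. The 3 control libraries at 0 were the shallow ones of mice U4, U6 and U10, the lowest UCMS library was the shallow one of U602, and the highest was that of U601 alone, with the next at 301. There 8 of 10 UCMS mice lay above the control median (2.10 ± 0.88, p = 0.0164, adjusted p = 0.932), and the log2 difference ran from 0.90, without the 4 shallow libraries, to 2.70 over the alternatives. In PV neurons Eif2b4 averaged below control, with the F test of differing stress effects over types at F = 2.97 (p = 0.0329, adjusted p = 1.00). Of its exon bases 7.85% overlap the antisense gene Snx17.

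Eif2ak3, the kinase PERK, had 127, 260.2 and 786 normalized counts in UCMS VIP libraries, against 0, 208 and 366 in control VIP libraries. It exceeded the control median in 7 of 10 UCMS mice (1.35 ± 0.67, limma, p = 0.0427, adjusted p = 0.932), and the difference ranged from 0.15 to 1.65 over the alternatives. Eif2b5, the catalytic subunit of eIF2B, had 19.7, 271 and 555 in UCMS PV libraries, against 197, 377 and 879 in control PV libraries, with 7 of 9 UCMS mice below the control median (-0.71 ± 0.48, adjusted p = 0.982). Over the tested genes of the group, 6 of 9 were positive in PYR (median 0.38), 3 of 10 in PV (-0.26), 7 of 10 in SST (0.46) and 8 of 10 in VIP (0.74). With edgeR the counts were 4 of 9, 2 of 10, 4 of 10 and 7 of 10, and the medians in PYR and SST turned to -0.03 and -0.06.

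**Figure D5:**
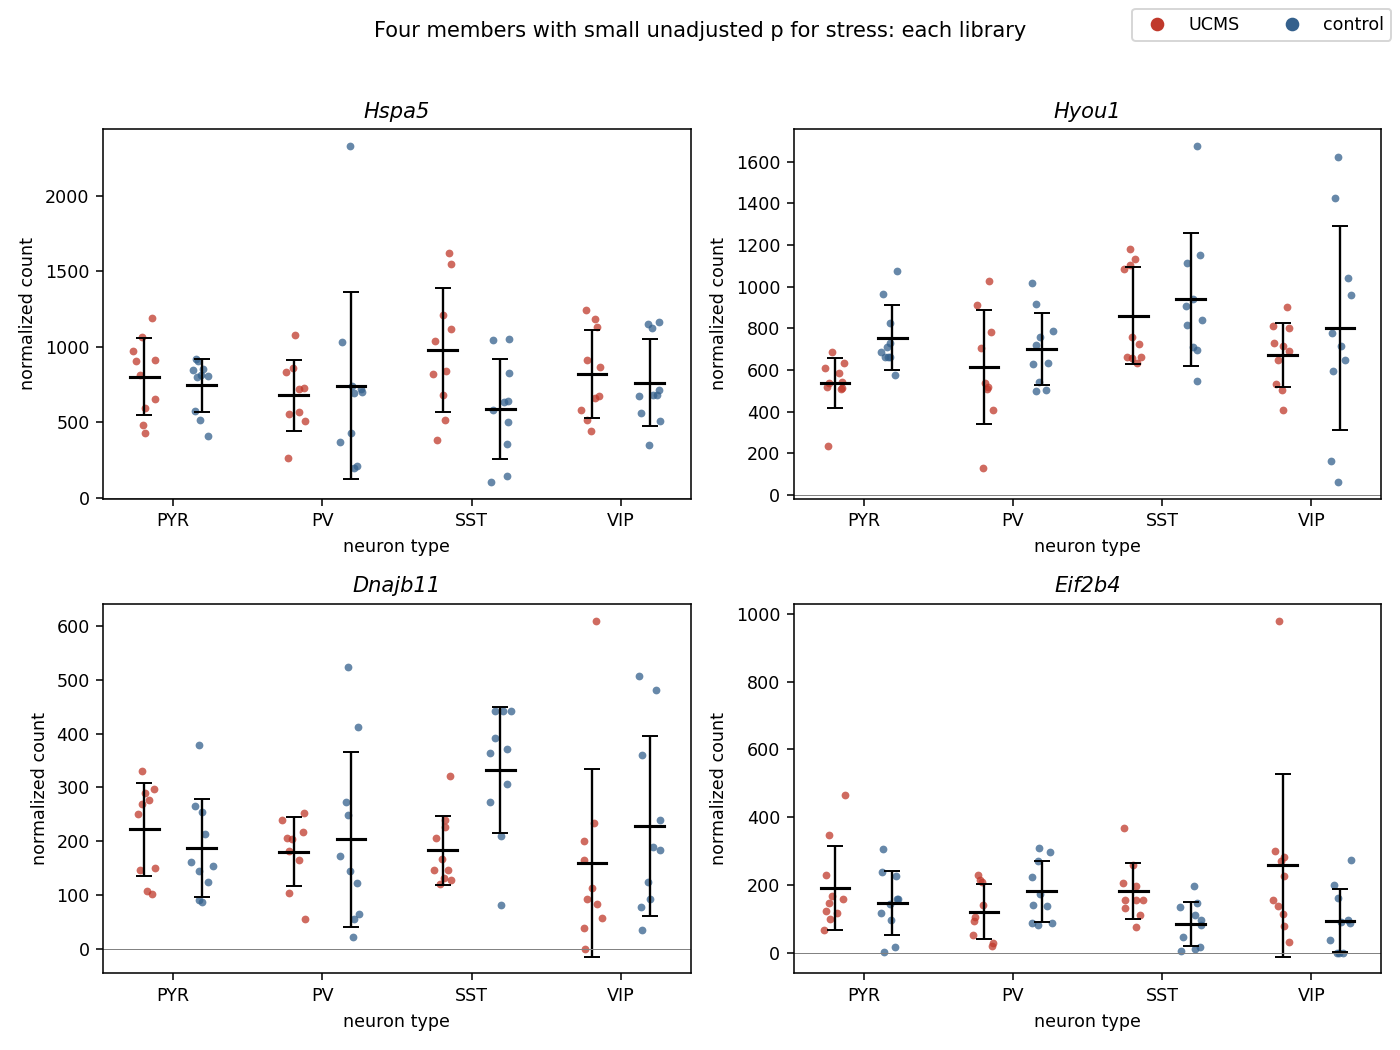
Normalized counts of Hspa5, Hyou1, Dnajb11 and Eif2b4 in each library (points), by neuron type, with UCMS left of control and the mean and SD of each group as bars (n = 10 libraries, 9 for UCMS PV; a bar may reach below 0 although counts cannot). In SST neurons Hspa5 has a median of 941 in UCMS and 607.96 in control mice, and Dnajb11 has 157 in UCMS and 367 in control mice.

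ATF4 targets and feedback genes were positive for 4 of 5 tested in PYR (median log2 difference 0.30) and for 5 of 5 in PV (0.41), SST (0.36) and VIP (0.88), but for 3, 4, 3 and 4 of 5 with edgeR in that order of types, and 0 were called. With genes detected as a covariate 5, 5, 4 and 4 of 5 were positive in that order. The summed level of the 6 genes had the other direction in SST, with 787 ± 246 normalized counts in UCMS and 988 ± 495 in control libraries, and was 1094 ± 336 in UCMS and 860.2 ± 316 in control VIP libraries (SD, n = 10 each). Sesn2, an inhibitor of mTORC1 induced by stress, had 0, 40.0 and 282 normalized counts in UCMS VIP libraries, against 0, 11.6 and 72.9 in control VIP libraries, 5 of which were at 0. It exceeded the control median in 8 of 10 UCMS mice (1.90 ± 1.02, limma, p = 0.0630, adjusted p = 0.932). Chac1 had 7.01, 38.7 and 148 in UCMS PYR libraries, against 0, 1.73 and 133 in control PYR libraries, 5 of which were at 0. All 10 UCMS mice lay above the control median, and the groups overlapped (1.40 ± 0.87, p = 0.108, adjusted p = 0.833).

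Asns, which makes asparagine and is the most abundant of these targets per kilobase (127), had arm differences of opposite sign on the linear and log scales in SST neurons. Its mean was 202 ± 64.9 normalized counts in UCMS and 358 ± 416 in control libraries (SD, n = 10 each), while its median was 188 in UCMS and 271 in control libraries. The log2 difference was 0.43 ± 0.59 there (SE; limma, adjusted p = 0.931), and 2 control libraries were at 0. Ppp1r15a, the stress-induced partner of the phosphatase that restores eIF2, had means of 127 ± 143 in UCMS and 73.4 ± 72.1 in control VIP libraries, and of 115 ± 74.7 in UCMS and 188 ± 201 in control SST libraries (SD, n = 10 each). Trib3 was above 0 in 1 of 10 UCMS and 0 of 10 control PYR libraries, and in 2 of 10 UCMS and 1 of 10 control VIP libraries.

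Averaging the types gave 1 value per mouse, over 4 types except for UCMS mouse U609, whose value rests on 3 because it has no PV library. No member passed, 0 of 39 against 0% of all 17427 genes tested (limma), and 5 members had an unadjusted p under 0.05 (6.81% of all genes). The median log2 difference was 0.19 over the members and 0.13 over all genes. Eif2b1, a regulatory subunit of eIF2B, had the smallest p. It had 0 reads in 19 of 79 libraries, and the part that detection plays in its difference was not tested. On the log2 scale around each type's mean its mouse values were -1.30, 0.98 and 1.90 (lowest, median and highest) in UCMS mice, against -1.92, -0.80 and 0.87 in control mice, with 8 of 10 UCMS mice above the control median (1.36 ± 0.46, p = 0.00397, adjusted p = 0.610). Eif2b4 had -0.09, 0.32 and 1.23 in UCMS mice, against -2.05, -0.47 and 1.08 in control mice, with 10 of 10 UCMS mice above the control median (0.93 ± 0.37, p = 0.0131, adjusted p = 0.691). The values of control mice U4, U6 and U10 include their shallow VIP libraries, where Eif2b4 was at 0. In VIP neurons alone its difference was smaller without the shallow libraries. Sesn2 differed by 0.98 ± 0.46 (8 of 10 UCMS mice above the control median, adjusted p = 0.725), and the largest negative statistics belonged to Hyou1 (-0.20 ± 0.15), Sel1l (-0.12 ± 0.10) and Eif2ak1 (-0.26 ± 0.22), with adjusted p from 0.842 to 0.862.

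Whether the effect of stress differed between types was tested by a moderated F test with the mouse as a block. No member passed, 0 of 39 against 0% of 17427 genes, and 1 member, Eif2b4, had an unadjusted p under 0.05 (4.68% of all genes). Dnajc3 (F = 1.96, p = 0.122) and Eif2ak3 (F = 1.85, p = 0.139) followed, each with adjusted p = 1.00 (limma). The opposite signs of Dnajc3 in PYR and PV neurons did not pass this test.

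Among the other genes of the pathway none was called under stress. Of the ER genes that are no members, 0 of 41 tested in PYR, 0 of 42 in PV, 0 of 42 in SST and 0 of 43 in VIP passed (limma). The shares called over all genes were 0.0808% in PYR and 0% in the other types. At an unadjusted p under 0.05 stood 3, 2, 1 and 3 of these ER genes in that order (7.32%, 4.76%, 2.38% and 6.98%). Over all genes the shares were 6.36%, 3.74%, 5.72% and 5.15%. Of the other integrated stress response genes, 0 of 27, 0 of 27, 0 of 29 and 0 of 30 passed. At an unadjusted p under 0.05 (limma) stood 0, 1, 1 and 1 of them (0%, 3.70%, 3.45% and 3.33%), below those shares of all genes in each type. A positive difference was found for 13 of the 27 in PYR (median log2 difference -0.07), 14 of 27 in PV (0.12), 25 of 29 in SST (0.29) and 23 of 30 in VIP (0.21), against 58.8%, 53.0%, 60.9% and 60.2% of all genes in that order.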

How the data were processed

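RNA from 79 laser captures of 130 cells was sequenced with a stranded total-RNA kit, per the labels' protocols. The deposited signal values are counts that the authors divided by size factors. Per the submitters' processing notes, HISAT2, SAMtools 1.3 and DESeq2 were used with build GRCm38/mm10. Which counter, annotation and strand setting were used is not given in the sources used here. Scaling each column by what 1 read is worth in it gave whole reads for 100% of values (tolerance 0.001 reads), which set the depth of each library and its floor of 3 reads. These floors cover counting error only.

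Values were tested as log2(normalized count + 4) with limma 3.58.1 (trend, robust) in R 4.3.3, leaving out genes whose mean was under 10, and p-values were adjusted by Benjamini-Hochberg over all genes tested. Fold changes on this scale understate changes of low genes. Stress was tested per type, on 1 mean per mouse, and as an F test over types; each type was set against the mean of the other 3 in UCMS and in control mice, and the F test and the type contrasts had the mouse as a block. The same number marks the same mouse in the labels, which is where the pairing comes from. The deviations of same-mouse libraries correlated with a median of 0.00773 over 117 pairs of types, and 0 of these were over 0.1. Alternatives used other pseudocounts and filters, left out libraries or mice, added genes detected as a covariate, or ran edgeR 4.0.16 and DESeq2 1.42.0 on recovered reads. For stress, edgeR called 0, 0, 0 and 896 of all genes in PYR, PV, SST and VIP, and DESeq2 called 32, 46, 30 and 83. The scripts were tested on simulated data with changes put in. For stress within a type, 10.3% (PV) to 16% (PYR) of 2-fold changes were called. Of 4-fold changes 27.8% (VIP) to 37.1% (SST) were. The average of types called 31.9% and 55.2%, and the F test 3.12% and 24.7%, in that order of folds. For the F test the changes were put into UCMS SST libraries alone. For both, the simulated spread of a gene was taken over libraries of all types and so includes type differences, which may lower these percentages. The changed genes were drawn at random from those above the filter. Over such genes most changes of these sizes would thus be missed within a type, and the share for abundant members was not simulated apart. A member without a call is not shown to be unchanged.

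Exon lengths and overlaps come from GENCODE M21, in which 38636 gene IDs matched and 243 did not. Fold changes with tests were given for members called in a comparison, for the 3 with the smallest unadjusted p in each direction, and for a fixed list of anchor genes from which the text names those that add to a result. The members and lists were chosen with earlier results of these data known.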

Additional observations from a re-analysis of the deposited data

Results flagged for a closer look

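Within groups of 9 or 10 libraries, 19 of 77 groups examined had 1 library far from the rest, by the gap to its nearest neighbour as a share of the group's range. The cut-off flags about 1 in 20 groups where values follow a normal distribution. Untransformed counts are skewed and some groups hold zeros, so that rate cannot show whether 19 of 77 is an excess. Of the 19, 18 were high libraries and 1 was low. All values are normalized counts.

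The low one was Hyou1 in UCMS PYR neurons, where mouse U605 had 235.4 and the nearest library 506.5. Among the members named for their stress comparison, high libraries were Eif2b4 in UCMS VIP (mouse U601, 980.5, nearest 300.8), Eif2ak3 in UCMS VIP (U602, 785.9, nearest 473.2), Dnajb11 in UCMS VIP (U602, 609.9, nearest 234.3), Edem1 in UCMS SST (U608, 780, nearest 360.6), Syvn1 in control PV (U3, 777.7, nearest 326.1) and Ddit3 in control PV (U8, 341.2, nearest 160.2). The UCMS VIP library of U602 is 1 of the 4 shallow libraries.

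Among the members called between types, Eif2ak4 stood high in UCMS SST (U606, 1137, nearest 693), UCMS VIP (U601, 1140, nearest 773.9), control PV (U3, 1410, nearest 778) and control SST (U10, 1588, nearest 900). Eif2ak2 did in UCMS PYR (U604, 37.65, nearest 14.03), UCMS VIP (U608, 220.7, nearest 65.37), control SST (U8, 133.2, nearest 40.09) and control VIP (U8, 177.3, nearest 21.8). Ern1 did in UCMS PYR (U605, 443, nearest 245.9), control SST (U1, 470.5, nearest 243.7) and control VIP (U10, 844.7, nearest 366.4), and Atf4 in control VIP (U2, 1097, nearest 680.1).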

How the results depend on the processing

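The count of members called stayed at 0 for stress in each type, for the average over types and for the F test under every alternative run for it, also with a random replicate block for the mouse (0 in each stress comparison) and with no replicate block in the F test (0). With no replicate block the type contrasts of control mice gave 1 call for PYR and 1 for PV, as with it, and the block moved no other count of calls by over 1.5 times. Counts between types moved more. For PYR in UCMS mice, 1 member (Eif2ak4) in place of 2 was called with a pseudocount of 16, no filter, a mean of at least 50, without the 4 shallow libraries, or with edgeR. With edgeR that was 2.56% of members, against 7.26% of all genes. For PYR in control mice edgeR called 2 (Eif2ak2 and Eif2ak4; 5.13% of members, against 5.39% of all genes) and DESeq2 called 3 (also Creld2; 7.69%, against 15.2%). For PV in UCMS mice 1 was called with no filter, edgeR or DESeq2 (Atf4), or with a 2-fold minimum (Ern1). That was 2.56% of members, against 8.18% of all genes with edgeR and 18.9% with DESeq2. For PV in control mice 0 were called with a pseudocount of 16, a mean of at least 50 or no filter. For SST in UCMS mice DESeq2 called 3 in place of 0 (7.69%, against 8.07% of all genes). For VIP in UCMS mice 0 were called with no filter, without the 4 shallow libraries, with a 2-fold minimum or with edgeR (5.09% of all genes with edgeR). Leaving out each mouse in turn gave 1 to 2 calls for PYR in UCMS, 1 for PYR in control, 1 to 2 for PV in UCMS, 0 to 1 for PV in control, 0 to 1 for VIP in UCMS mice, and 0 elsewhere. Leave-one-out was not run for the F test, nor edgeR and DESeq2 for the average and the F test. The fit without shallow libraries applies to comparisons with VIP, which holds all 4.

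For single genes, 587 of the values under alternatives kept direction and side of the threshold, 23 lost and 9 gained the call, and 1 turned: Derl1 in VIP, 0.11 without the 4 shallow libraries. With 1 mouse left out, Wfs1 in SST of control mice ran from -0.31 to 0.15 (without U3) and Slc3a2 in VIP of UCMS mice from -0.28 to 0.11 (without U607). Some scalings moved the median stress difference of all genes by over 0.1: DESeq2 by -0.19 in SST and -0.14 in VIP, edgeR by -0.13 in SST and -0.12 in VIP, the genes-detected covariate by -0.10 in PYR, -0.11 in SST and -0.16 in VIP, and leaving out the shallow libraries by -0.14 in VIP. The cause was not tested. Depth limits the low genes, of which Eif2ak2, Ern1 and Chac1 have libraries at 0.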

Other observations

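Over the 406 pairs of the 29 members with at least 3 reads in at least 70 libraries, the median Pearson correlation of deviations from the group means was 0.00159, with a range of -0.37 to 0.52, against a median of 0.0142 over pairs of 7812 genes filtered the same way. Libraries share depth and the authors' scaling, genes are not independent, and the values are given as a description.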
